A study of Mus musculus with 12 samples.

Results

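The genes described here are 35 interferon-stimulated genes, a list of antiviral effectors, nucleic acid sensors, guanylate-binding GTPases and signalling proteins, out of the 53379 genes of the count table. The rule that picks them lists gene symbols and uses no measured value, although the list was drawn up with earlier results of these data known. Each symbol was matched to its Ensembl identifier with GENCODE M21. All 35 passed the filter on low counts and were among the 12386 genes tested. RNA was sequenced from bone marrow-derived macrophages (BMDMs), which are macrophages grown from bone marrow progenitors in L929 cell conditioned medium, a source of the growth factor CSF1. The cells came from 4 adult male C57Bl/6J mice, and the labels name no engineered allele. Part of the culture of each mouse stayed untreated and the rest received 1 μM fenoterol, an agonist of the β2-adrenergic receptor (B2AR), for 1 h or 4 h, with no change of the medium, which gave 3 groups of 4 libraries. A single untreated library per mouse served both times, and no vehicle or time-matched control is named in the labels, so that the effect of fenoterol and that of time after the addition cannot be told apart. Each mouse gave 1 culture per condition, and the numbers 1 to 4 below are the numbers of the mice.

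Type I interferons bind a receptor made of IFNAR1 and IFNAR2, whose kinases JAK1 and TYK2 phosphorylate STAT factors, STAT2 among them. STAT2 and IRF9 are subunits of the complex ISGF3, which binds the interferon-stimulated response element (ISRE) in the promoters of interferon-stimulated genes, while the GAS element serves the response to interferon gamma. Macrophages keep these genes at a low level by tonic interferon signalling and raise them strongly when they sense viral nucleic acid. The B2AR signals through cyclic AMP and protein kinase A to the factor CREB, which binds the cyclic AMP response element (CRE).

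RefSeq promoters (GRCm38.p6) running from 250 bases before to 50 bases after the start site were matched for 26 of the 35 genes. They were not matched for *Dhx58*, *Zbp1*, *Oas2*, *Usp18*, *Mx1*, *Mx2*, *Ifi27*, *Rtp4* and *Parp14*. The core of the ISRE, searched on both strands as GAAANNGAAA, was present in 17 of the 26 promoters (65.4%), against 1079 of the promoters of 27025 genes (3.99%). The GAS element, searched as TTCNNNGAA, was present in 9 of 26 (34.6%), against 9.55% of all genes. The full CRE, TGACGTCA, was found in 0 of 26 (2.03% of all genes), and its core TGACG, which the full CRE contains, in 6 of 26 (23.1%), against 23% of all genes. The sequences below are the stretches around the ISRE core that end before the RefSeq start site, for the 6 genes with the smallest p at 4 h among those with such a match. They are shown because the same pattern, with varying letters, stands before genes that rose (*Oas3*, *Isg15*, *Stat2*) and genes that fell (*Gbp3*, *Gbp7*) at 4 h. *Gbp2* passed only between the times, and its start in GENCODE M21, chr3:142620602, lies within the stretch shown. Capitals mark the bases of the ISRE core on either strand, with overlapping matches joined, and each sequence is read 5′ to 3′ on the strand of its gene.
Gbp3: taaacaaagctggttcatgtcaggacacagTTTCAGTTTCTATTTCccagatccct
Gbp7: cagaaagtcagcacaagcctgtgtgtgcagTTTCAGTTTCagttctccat
Gbp2: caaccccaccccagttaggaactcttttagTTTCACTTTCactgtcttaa
Oas3: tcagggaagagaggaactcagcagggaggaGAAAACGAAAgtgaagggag
Isg15: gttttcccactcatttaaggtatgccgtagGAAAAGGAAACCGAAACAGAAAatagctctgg
Stat2: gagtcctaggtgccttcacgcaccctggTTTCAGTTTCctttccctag
These stretches lie at chr3:142559969-142560024 for *Gbp3*, chr3:142530253-142530302 for *Gbp7* and chr3:142620574-142620623 for *Gbp2*, all on the plus strand. Those of *Oas3* (chr5:120777715-120777764) and *Isg15* (chr4:156200865-156200926) are on the minus strand, and that of *Stat2* (chr10:128270248-128270295) is on the plus strand. *Isg15* has 3 overlapping matches and *Gbp3* has 2. A match is a run of letters and does not show that a factor binds there.

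In untreated BMDMs, the genes spanned a wide range of levels per length. The mean level as RPKM, which are reads scaled for exon length and library size, was highest for *Bst2*, which encodes tetherin, a membrane protein that holds budding virus at the cell surface (182 ± 50.4 RPKM, SD, n = 4). *Samhd1*, a dNTP triphosphohydrolase, followed with 75.8 ± 5.15 RPKM, then *Rtp4* with 47.4 ± 15.1 and *Parp14* with 43.1 ± 5.72. The lowest were *Isg20* (3.08 ± 1.10 RPKM), *Mx2* (2.19 ± 0.705 RPKM) and *Ifi44* (0.714 ± 0.607 RPKM). In the order of means, the neighbours *Bst2* and *Samhd1*, *Samhd1* and *Rtp4*, and *Mx2* and *Ifi44* differed by more than the larger SD of the pair, and all other neighbours by less.

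**Figure D1:**
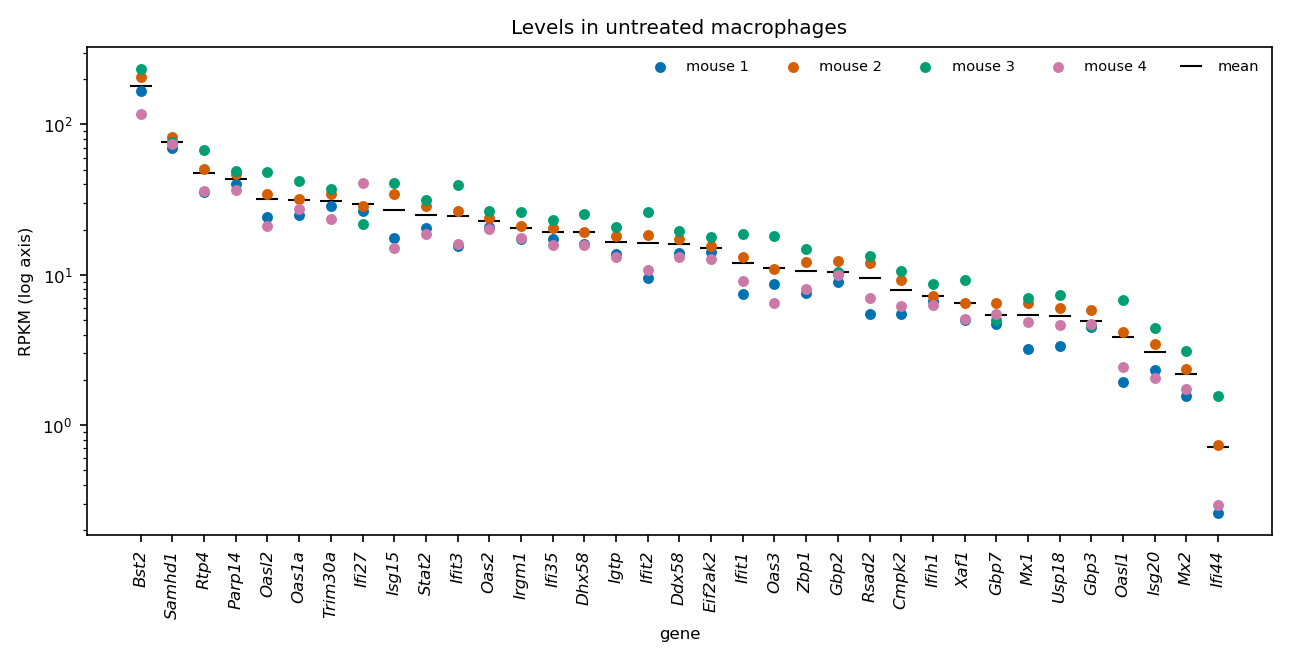
Level of each of the 35 genes in untreated BMDMs in RPKM (log axis), with 1 point per mouse and a dash for the mean, ordered by the mean. Mouse 3 (green) lies at the top of most columns, and mouse 1 (blue) or mouse 4 (pink) at the bottom.

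The untreated cells of the 4 mice differed in these genes more than in most others. In 30 of the 35 genes the untreated library of mouse 3 held the highest normalised read count, that is the count scaled by the TMM method to the mean library size, and the lowest was that of mouse 1 in 19 genes and that of mouse 4 in 15. With 1 added to each count, the highest of the 4 mice was a median of 1.88 times the lowest (range 1.18 to 5.88), and 12 genes differed at least 2 times. Over the 10289 genes with a mean count of at least 50, the median was 1.19, and 3.22% differed at least 2 times. The exceptions to this order were *Samhd1*, *Gbp2*, *Gbp3* and *Gbp7*, which were highest in mouse 2, and *Ifi27*, which was highest in mouse 4 and lowest in mouse 3. With 1 untreated library per mouse, a difference between the mice and one between their cultures cannot be told apart. The spread narrowed with treatment to a median of 1.62 times at 1 h and 1.45 times at 4 h, while that of all genes was 1.19 at 4 h, as in untreated cells.

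Total counts per library ran from 14580533 to 24153284, and the untreated libraries came in the depth order of mice 1, 3, 4 and 2. The part of depth in the differences between mice was not tested. Of the marker lists checked, the 8 macrophage markers summed to between 21382 and 25957 RPKM in every library. The 6 markers of plasmacytoid dendritic cells, which are strong producers of interferon, summed to between 6.08 and 8.54 RPKM, the 8 of neutrophils to between 38.0 and 75.3, and the 5 of fibroblasts to between 2.45 and 7.31. Those of dendritic cells, B cells and T and NK cells stayed under 0.2 RPKM in every library, and the 3 erythroid markers had no read. *Klk1* of the plasmacytoid list had no read in any group. The part of these cells in the differences between mice was not tested. In bulk RNA, fewer cells of a type and less RNA per cell cannot be told apart.

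The direction of the changes differed between the mice, and at 1 h most of the genes went 1 way in mouse 1 and the other way in mouse 2. After 1 h of fenoterol, 34 of the 35 genes were higher than in the untreated cells of the same mouse in mouse 1, with a median log2 change of 0.56. In mouse 2, 33 of the 35 were lower, with a median of -0.31. Mouse 3 had 14 higher and 21 lower (median -0.08), and mouse 4 had 23 higher and 12 lower (median 0.05). Over all genes tested, between 48.2% and 49.7% were higher in each of the 4 mice. TMM scaling balances higher and lower genes in each library, so these shares cannot show whether the whole table was split too. The split of the 35 genes is thus one relative to the scaled table. After 4 h, 25 genes were higher in mouse 1, 6 in mouse 2, 13 in mouse 3 and 31 in mouse 4, with medians of 0.29, -0.25, -0.12 and 0.57, against 50.1% to 50.7% of all genes.

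Seen per library, the mean log2 level of the 35 genes relative to the mean of the untreated libraries was -0.34, 0.19, 0.44 and -0.30 in untreated mice 1 to 4. At 1 h it was 0.23, -0.15, 0.39 and -0.19, and at 4 h -0.02, -0.16, 0.31 and 0.32. The 3 libraries of mouse 3 thus stayed high throughout. Mouse 1 was furthest below the untreated mean when untreated, mouse 2 was above the untreated mean only when untreated, and mouse 4 was high only at 4 h. Each change within a mouse is taken against the single untreated library of that mouse.

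**Figure D2:**
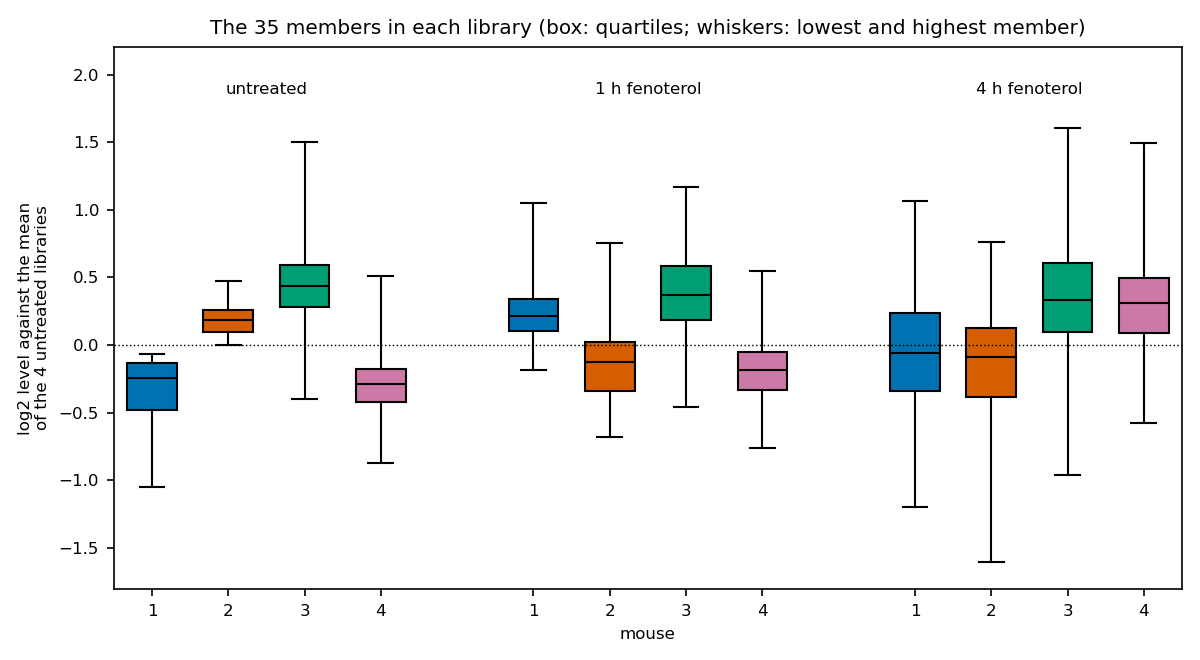
Log2 level of the 35 genes in each of the 12 libraries relative to the mean of the 4 untreated libraries (boxes hold the quartiles, the line is the median and whiskers reach the lowest and highest gene). The untreated boxes of mice 1 and 4 lie below 0 and those of mice 2 and 3 above it, and the 4 h box of mouse 4 lies above 0.

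**Figure D3:**
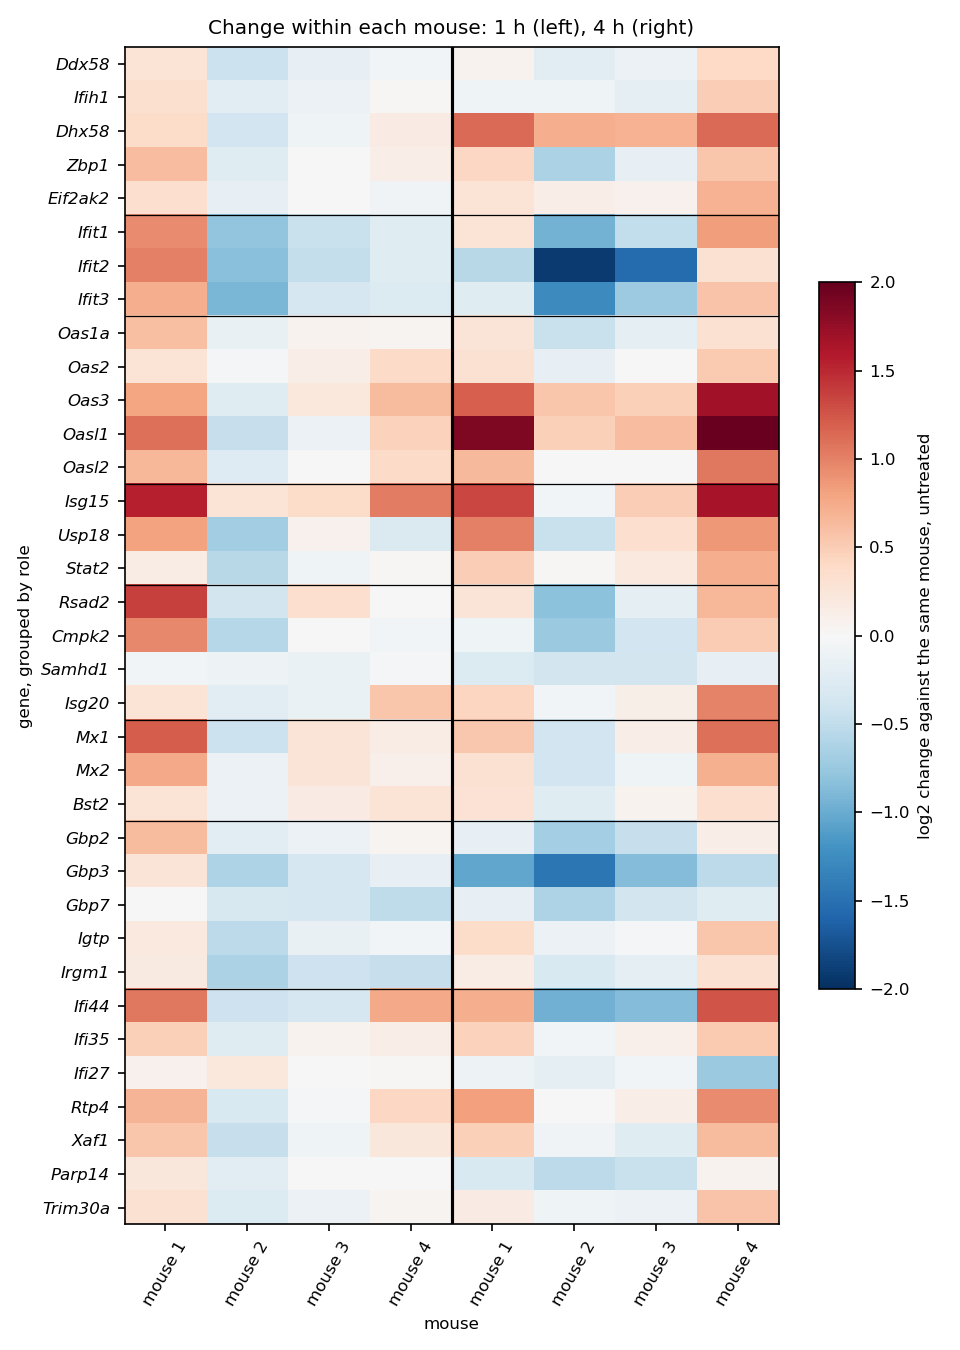
Log2 change of each gene against the untreated library of the same mouse, at 1 h (left 4 columns) and 4 h (right 4 columns), red for higher and blue for lower, with genes grouped by role. At 1 h the column of mouse 1 is red in 34 of 35 rows and that of mouse 2 blue in 33, while at 4 h *Dhx58*, *Oas3* and *Oasl1* are red and *Gbp3* is blue in all 4 mice.

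To ask which genes changed across mice, edgeR's quasi-likelihood test was fitted to the whole table with the mouse as a block, with Benjamini-Hochberg adjustment over the 12386 genes. At 1 h, 1 of the 35 genes passed an adjusted p of 0.05 with a higher level (*Isg15*) and 2 with a lower level (*Gbp7* and *Irgm1*), where 13.3% of all genes tested were higher and 13.7% lower. The median log2 change was 0.08, against -0.005 over all genes, and it was -0.030 without untreated mouse 1, -0.028 without untreated mouse 4, -0.064 without the 1 h library of mouse 1 and -0.093 without all of mouse 1. In 34 of the 35 genes the fitted change was under 0.5 in size on the log2 scale. The groups did not overlap in 0 of the 35 genes, against 23.0% of all genes. All 4 mice were higher for *Isg15* and *Ifi27* only (21.5% of all genes) and lower for *Samhd1* only (22.8% of all genes). Fitted without the block, 0 of the 35 genes passed at 1 h, and 2 had an unadjusted p under 0.05, while DESeq2 with the block called 2.

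At 4 h, 9 genes rose and 6 fell, where 23.6% of all genes rose and 23.8% fell, so that the shares of the list, 9 and 6 of 35, lay close to those of the table. The genes that rose were *Dhx58*, *Eif2ak2*, *Oas3*, *Oasl1*, *Oasl2*, *Isg15*, *Stat2*, *Ifi35* and *Rtp4*, and those that fell were *Ifit2*, *Samhd1*, *Gbp3*, *Gbp7*, *Ifi27* and *Parp14*. The median log2 change was 0.11, against 0.005 over all genes, but -0.079 without the 4 h library of mouse 4 and -0.055 without all of mouse 4. The counts moved as well, to 15 higher and 5 lower without untreated mouse 2, and to 6 higher and 8 lower without the 4 h library of mouse 4. At 4 h 1 gene, *Oasl1*, changed at least 2-fold. Untreated and 4 h libraries did not overlap in 4 genes (37.6% of all genes), of which *Dhx58* was higher and *Samhd1*, *Gbp3* and *Gbp7* were lower. All 4 mice were higher in 6 genes (27.4% of all genes) and lower in 4 (27.4%). Between 1 h and 4 h, 7 genes rose and 6 fell (23.0% and 23.6% of all genes). Of the 15 calls at 4 h, 7 were lost without the block, which left 4 higher and 4 lower. Between the times, 6 of the 13 calls were lost without it, which left 3 higher and 4 lower.

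Over the 26 alternatives tried, which included leaving out each library and each mouse, 7 of the 15 calls at 4 h held in every one, 4 of them higher (*Dhx58*, *Oas3*, *Oasl1* and *Isg15*) and 3 lower (*Samhd1*, *Gbp3* and *Gbp7*). Between the times, 5 of the 13 held in every one, namely those of *Dhx58*, *Oasl1*, *Stat2*, *Samhd1* and *Gbp3*. None of the 3 calls at 1 h did. The promoters with an ISRE core were found on both sides at 4 h. Of the genes with a matched promoter, 4 of the 7 that rose held it (*Eif2ak2*, *Isg15*, *Oas3* and *Stat2*), as did 2 of the 4 that fell (*Gbp3* and *Gbp7*) and 11 of the 15 that did not pass.

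**Figure D4:**
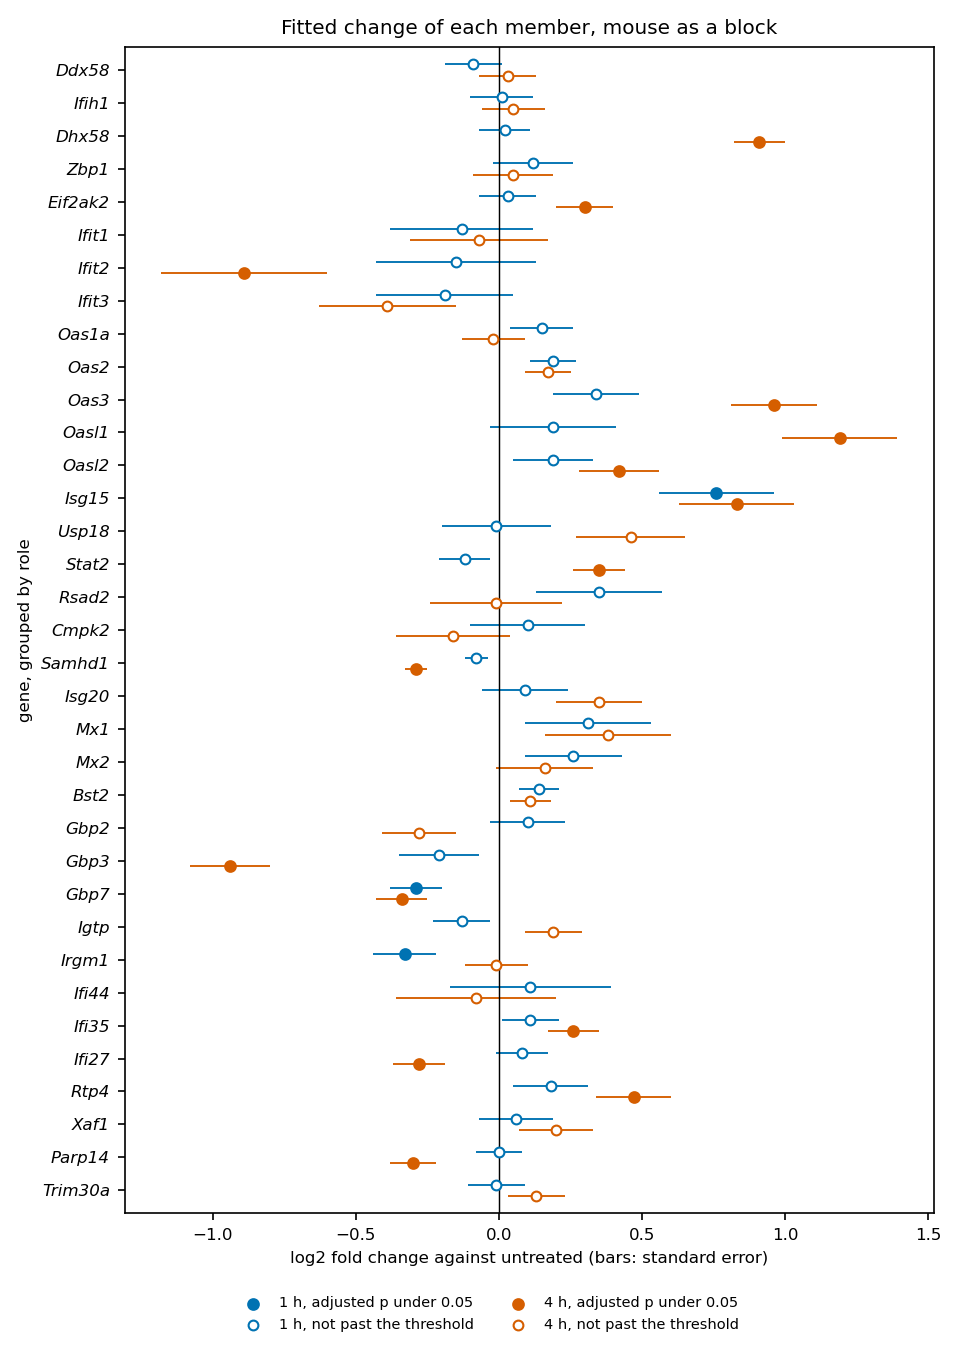
Fitted log2 fold change of each gene against untreated at 1 h (blue) and 4 h (orange), with bars for the standard error and filled points for an adjusted p under 0.05. At 1 h, 3 points are filled, and at 4 h, 9 are filled on the right of 0 and 6 on the left.

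Of the 5 sensors of foreign nucleic acid, *Dhx58* and *Eif2ak2* rose at 4 h. *Dhx58* encodes LGP2, which lacks the signalling domain of its relatives and tunes their activity, and it lies at chr11:100694884-100704271 (GRCm38). Its normalised read counts were 1031, 1231, 1624 and 1016 in untreated mice 1 to 4, then 1335, 945, 1527 and 1136 at 1 h, and 2250, 2032, 2619 and 2232 at 4 h. Every 4 h library was above all the others, while untreated and 1 h libraries overlapped. The log2 change was 0.91 ± 0.09 (standard error, n = 4) at 4 h, with an adjusted p of 1.46e-07, and 0.90 ± 0.09 between the times (adjusted p = 2.42e-07), and at 1 h it was 0.02 ± 0.09, which did not pass. Its exons overlap those of *Dhx58os* on the other strand over 4.31% of their length, and such overlaps cover 4.32% of *Eif2ak2* and 4.44% of *Usp18*. The strand setting of the counting was not stated, so reads of the overlap may belong to either gene.

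*Eif2ak2* encodes PKR, a kinase that stops translation when it binds double-stranded RNA. It was counted at 1425, 1549, 1788 and 1276 in untreated mice 1 to 4, at 1793, 1375, 1776 and 1219 after 1 h, and at 1721, 1705, 1885 and 2066 after 4 h. It was higher at 4 h in all 4 mice, but its groups overlapped. On the log2 scale it rose by 0.30 ± 0.10 at 4 h (adjusted p = 0.0189, 3.22e-06 to 0.112 over the other fits) and 0.28 ± 0.10 between the times (adjusted p = 0.0321). The call at 4 h was lost without the block, by DESeq2, without untreated mouse 1 (0.26), without untreated mouse 4 (0.23), without the 4 h library of mouse 4 (0.15) and without all of mouse 4 (0.16). Between the times it was lost without the block, by DESeq2, without the 1 h library of mouse 2 (0.24), 3 (0.28) or 4 (0.17), without the 4 h library of mouse 4 (0.12), and without all of mouse 2 (0.26) or mouse 4 (0.11). *Ddx58* and *Ifih1*, which encode the RNA helicases RIG-I and MDA5, had log2 changes of -0.09 and 0.01 at 1 h and of 0.03 and 0.05 at 4 h. *Zbp1*, a sensor of left-handed nucleic acid, had 0.12 and 0.05. None of these 3 passed the threshold at either time, and at 1 h no sensor had an unadjusted p under 0.05.

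The IFIT proteins bind viral RNA that lacks the cap of host mRNA, and their genes lie side by side within 99.3 kb at chr19:34550694-34650009. *Ifit2* fell at 4 h, though not in every mouse. Its normalised read counts were 730, 1418, 2016 and 824 in untreated mice 1 to 4, 1466, 791, 1448 and 696 at 1 h, and 498, 376, 691 and 1013 at 4 h. The 4 h libraries of mice 1 to 3 were below every untreated library, and that of mouse 4 was above its own. The fitted change was -0.89 ± 0.29 at 4 h (adjusted p = 0.0195, 1.63e-34 to 0.160 over the other fits) and -0.75 ± 0.29 between the times (adjusted p = 0.0479).

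The call of *Ifit2* at 4 h was lost without the block, by DESeq2, and without untreated mouse 2 (-0.62) or 3 (-0.71). It was also lost without the 4 h library of mouse 1 (-0.79), 2 (-0.68) or 3 (-0.71), and without all of mouse 2 (-0.57) or mouse 3 (-0.64). Between the times the call was lost in 14 of the 26 alternatives. Among them, the value was -0.37 without the 1 h library of mouse 1 and -0.43 without all of mouse 1. For the other libraries it was -0.83 and -0.78 without the 1 h libraries of mice 2 and 3, and -0.63, -0.56 and -0.57 without the 4 h libraries of mice 1, 2 and 3, and it was -0.67 and -0.65 without all of mouse 2 or mouse 3.

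*Ifit3* was counted at 530, 909, 1354 and 552 in untreated mice 1 to 4, at 879, 483, 1068 and 456 after 1 h and at 445, 378, 818 and 823 after 4 h. The groups overlapped, and its log2 changes of -0.19 ± 0.24 and -0.39 ± 0.24 did not pass. The change at 4 h was -0.78 without the 4 h library of mouse 4 and -0.76 without all of mouse 4, and passed in both. With no filter on low counts *Ifit3* at 4 h also passed (-0.38). Of its 50-base stretches, 51.2% are shared with *Ifit3b*, so that its count is uncertain. *Ifit1* had log2 changes of -0.13 ± 0.25 and -0.07 ± 0.24, neither past the threshold. All 3 genes were higher in mouse 1 and lower in mice 2, 3 and 4 at 1 h, as the map of changes within mice shows.

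The OAS family held the largest rise. Oligoadenylate synthetases make the second messenger that activates RNase L, and the OAS-like proteins act on sensing and on translation of *Irf7* mRNA. *Oasl1* (chr5:114923240-114937915) was counted at 99.5, 213, 348 and 124 in untreated mice 1 to 4, at 215, 154, 322 and 171 after 1 h, and at 366, 296, 531 and 492 after 4 h. Each mouse was higher at 4 h than at either earlier point, although the untreated library of mouse 3 exceeded the 4 h library of mouse 2. *Oasl1* rose by 1.19 ± 0.20 on the log2 scale at 4 h (adjusted p = 0.000116) and 1.00 ± 0.20 between the times (adjusted p = 0.000582), against 0.19 ± 0.22 at 1 h.

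*Oas3* (chr5:120753098-120777661) had counts of 1202, 1517, 2512 and 903 in untreated mice 1 to 4, of 2081, 1287, 2914 and 1393 at 1 h and of 2747, 2226, 3491 and 2893 at 4 h. All 4 mice were higher at 4 h than untreated and than at 1 h, with overlap only through the high libraries of mouse 3. The change was 0.96 ± 0.15 at 4 h (adjusted p = 4.41e-05) and 0.63 ± 0.15 between the times (adjusted p = 0.00216, lost without the block, with 2.99e-25 to 0.145 over the other fits). *Oasl2* rose by 0.42 ± 0.14 at 4 h (adjusted p = 0.0191), and was higher in mice 1 and 4. This call was lost without the block, by DESeq2, without untreated mouse 1 (0.30) or mouse 4 (0.26), without the 4 h library of mouse 4 (0.23), and without all of mouse 1 (0.35) or mouse 4 (0.20).

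*Oas2* had log2 changes of 0.19 ± 0.08 and 0.17 ± 0.08 at 1 h and 4 h, with an unadjusted p under 0.05 at both times and no adjusted p under it (0.0887 and 0.0836). The 1 h change of *Oas3* was 0.34 ± 0.15 (adjusted p = 0.117), and at 1 h 0 of the 5 OAS genes passed in edgeR or DESeq2 with the block, the filter on low counts and all 12 libraries in 1 fit, with 2 at an unadjusted p under 0.05. Both *Oas3* and *Oas2* passed at 1 h without untreated mouse 2 (0.50 and 0.28), without all of mouse 2 (0.52 and 0.26), without the 4 h library of mouse 4 (0.35 and 0.19), with only the 2 groups compared and with no filter on low counts, the last of which also called *Oasl2*. At 4 h *Oas2* passed without untreated mouse 2 (0.26), without the 4 h library of mouse 2 (0.24) or 3 (0.22), without all of mouse 2 (0.28) and with no filter. *Oas1a* had 0.15 ± 0.11 and -0.02 ± 0.11, and 57.6% of its 50-base stretches are shared with *Oas1g* or *Oas1b*. *Oas2*, *Oas3* and *Oas1a* lie within 177 kb at chr5:120730333-120907521, and *Oasl2* and *Oasl1* within 41 kb at chr5:114896936-114937915. The differences between these genes were not tested.

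*Isg15* was the 1 gene of the list that rose at 1 h. It encodes a ubiquitin-like protein that is attached to other proteins, and it lies at chr4:156199424-156200818. Its normalised read counts were 259, 509, 607 and 224 in untreated mice 1 to 4, 758, 618, 783 and 455 at 1 h, and 653, 489, 851 and 703 at 4 h. All 4 mice were higher at 1 h and 3 of 4 at 4 h. At both times the steps were larger in mice 1 and 4, whose untreated libraries were the lowest, than in mice 2 and 3. The log2 change was 0.76 ± 0.20 at 1 h (adjusted p = 0.00815, 1.44e-19 to 0.0971 over the other fits) and 0.83 ± 0.20 at 4 h (adjusted p = 0.00219), with 0.07 ± 0.19 between the times. The call at 1 h was lost without the block, without untreated mouse 1 (0.55) and without all of mouse 1 (0.50), and the call at 4 h held in all 26 alternatives.

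*Stat2*, a subunit of ISGF3, had counts of 2390, 3311, 3658 and 2175 in untreated mice 1 to 4, of 2647, 2247, 3444 and 2215 at 1 h and of 3355, 3351, 4182 and 3583 at 4 h. Each mouse had its highest value at 4 h, that of mouse 2 only just. The change was 0.35 ± 0.09 at 4 h (adjusted p = 0.00527, 1.44e-09 to 0.137 over the other fits, lost without the block) and 0.47 ± 0.09 between the times (adjusted p = 0.000541), against -0.12 ± 0.09 at 1 h. *Usp18*, a protease that removes ISG15 from proteins and damps receptor signalling, had log2 changes of -0.01 ± 0.19 and 0.46 ± 0.19. Its adjusted p of 0.0545 at 4 h did not pass, and it passed in 9 fits of the alternatives, among them limma-voom and the fits without untreated mouse 2 (0.70), without all of mouse 2 (0.73) and without the 4 h library of mouse 2 (0.62).

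Among the enzymes that act on nucleotides and RNA, *Samhd1* fell by a small and regular step. Its product breaks down the dNTPs that retroviruses need, and the gene lies at chr2:157097533-157135265. The counts were 12577, 14796, 13692 and 13324 in untreated mice 1 to 4, 12147, 13821, 12471 and 12929 at 1 h, and 10454, 11515, 10614 and 11805 at 4 h. All 4 mice were lower at both times, and every 4 h library was below all untreated and 1 h libraries. Its log2 changes were -0.08 ± 0.04 at 1 h, which passed only with scaling by library size (-0.15), -0.29 ± 0.04 at 4 h (adjusted p = 2.59e-05) and -0.21 ± 0.04 between the times (adjusted p = 0.000753).

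*Isg20*, an RNA exonuclease, had counts of 84.8, 127, 162 and 75.3 in untreated mice 1 to 4, of 103, 109, 148 and 111 at 1 h and of 115, 122, 175 and 150 at 4 h. It was higher at 4 h in mice 1, 3 and 4, and its log2 changes of 0.09 ± 0.15 and 0.35 ± 0.15 did not pass (adjusted p = 0.0571 at 4 h). At 4 h *Isg20* passed without untreated mouse 2 (0.47) or 3 (0.45), without the 4 h library of mouse 2 (0.43) and without all of mouse 2 (0.48). It also passed with scaling by library size only (0.38) and with no filter on low counts (0.36). *Rsad2*, which encodes viperin, a maker of a chain-terminating nucleotide, and *Cmpk2*, a nucleotide kinase, lie within 37.1 kb at chr12:26442746-26479837. Their log2 changes were 0.35 ± 0.22 and 0.10 ± 0.20 at 1 h and -0.01 ± 0.23 and -0.16 ± 0.20 at 4 h, none past the threshold. *Rsad2* at 1 h was 0.61 and passed without untreated mouse 2, and *Cmpk2* at 4 h was -0.44 and passed without the 4 h library of mouse 4. With no filter on low counts *Rsad2* at 1 h also passed (0.35). For *Rsad2* the counts in mice 1 to 4 went from 463, 1024, 1137 and 596 untreated to 1187, 795, 1429 and 602 at 1 h.

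The Mx GTPases, which trap viral nucleocapsids, and tetherin did not pass at any time in edgeR or DESeq2 with the filter on low counts and all 12 libraries, with no unadjusted p under 0.05 in edgeR. With no filter, edgeR called *Mx1* at 1 h (0.31) and 4 h (0.39), and *Mx1* and *Bst2* also passed when libraries of mouse 2 were left out. *Mx1* was counted at 239, 481, 518 and 363 in untreated mice 1 to 4, at 554, 357, 618 and 403 after 1 h and at 347, 369, 567 and 781 after 4 h. Mice 1, 2, 3 and 4 had their own highest value at 1 h, untreated, at 1 h and at 4 h, so that no time was the highest in all, and the log2 changes were 0.31 ± 0.22 and 0.38 ± 0.22. At 4 h the change of *Mx1* was 0.62 and passed without untreated mouse 2 or without all of mouse 2. *Mx2*, which the annotation lists as a polymorphic pseudogene, had 0.26 ± 0.17 and 0.16 ± 0.17.

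*Bst2* had counts of 2965, 3675, 4123 and 2081 in untreated mice 1 to 4, of 3570, 3409, 4618 and 2502 at 1 h and of 3617, 3094, 4334 and 2616 at 4 h. Mice 1, 3 and 4 were higher at both times and mouse 2 lower. With log2 changes of 0.14 ± 0.07 and 0.11 ± 0.07, its changes did not pass, and the groups overlapped. Without untreated mouse 2 they were 0.25 and 0.21, and without all of mouse 2 they were 0.23 at both times, all past the threshold, as was 0.19 at 4 h without the 4 h library of mouse 2.

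The GTPases induced mainly by interferon gamma, which attack the vacuoles of intracellular microbes, included 2 of the 6 genes that fell at 4 h. *Gbp7*, *Gbp3* and *Gbp2* lie in this order within 108 kb at chr3:142530342-142638008. *Gbp3* had counts of 288, 374, 291 and 300.2 in untreated mice 1 to 4, of 342, 242, 231 and 269 at 1 h, and of 140, 137, 159 and 209 at 4 h. Every 4 h library was below every untreated and 1 h library. The log2 change was -0.21 ± 0.14 at 1 h, which passed only without the 1 h library of mouse 1 (-0.39), -0.94 ± 0.14 at 4 h (adjusted p = 3.38e-05) and -0.74 ± 0.15 between the times (adjusted p = 0.000490).

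*Gbp7* had counts of 519, 714, 548 and 606 in untreated mice 1 to 4, of 520, 572, 431 and 425 at 1 h, and of 465, 465, 426 and 510 at 4 h. It was lower at 4 h in all 4 mice with no overlap, and at 1 h in mice 2, 3 and 4. The change was -0.34 ± 0.09 at 4 h (adjusted p = 0.00400) and -0.29 ± 0.09 at 1 h (adjusted p = 0.0218, 0.00408 to 0.113 over the other fits). The call at 1 h was lost without the block, without untreated mouse 2 (-0.24), 3 (-0.27) or 4 (-0.27), without the 1 h library of mouse 3 (-0.27) or 4 (-0.20), and without all of mouse 2 (-0.28), 3 (-0.26) or 4 (-0.22). Of its 50-base stretches, 12.7% are shared with other genes, *Gbp3* and *Gbp9* among them.

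*Gbp2* had log2 changes of 0.10 ± 0.13 and -0.28 ± 0.13 against untreated, which did not pass, and of -0.38 ± 0.13 between the times (adjusted p = 0.0257, 4.51e-05 to 0.175 over the other fits). At 4 h *Gbp2* passed in 7 of the alternatives, among them -0.45 without the 4 h library of mouse 4, -0.44 without all of mouse 4, -0.39 without untreated mouse 1, -0.32 without all of mouse 1 and -0.28 without the 1 h library of mouse 1 or with only the 2 groups compared. The call between the times was lost by DESeq2, with scaling by library size only, without the 1 h library of mouse 1 (-0.20), and without the 4 h library of mouse 1 (-0.32), 2 (-0.30) or 3 (-0.35). Without all of mouse 1, 2 or 3 it was lost at -0.22, -0.35 and -0.39. The immunity-related GTPases *Igtp* and *Irgm1* were both higher at 4 h than at 1 h. *Irgm1* was lower at 1 h by -0.33 ± 0.11 on the log2 scale (adjusted p = 0.0360, 1.16e-06 to 0.236 over the other fits), at -0.01 ± 0.11 at 4 h, and 0.32 ± 0.11 higher at 4 h than at 1 h (adjusted p = 0.0257). *Igtp* had -0.13 ± 0.10 and 0.19 ± 0.10 against untreated. The second passed without untreated mouse 2 (0.31) or all of mouse 2 (0.30), and with no filter on low counts (0.20). Between the times *Igtp* rose by 0.33 ± 0.10 (adjusted p = 0.0143, 7.64e-05 to 0.118 over the other fits), in all 4 mice.

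These calls rested on few libraries. That of *Irgm1* at 1 h was lost without the block, by DESeq2, without untreated mouse 2 (-0.22) or 3 (-0.27), without the 1 h library of mouse 2 (-0.27), 3 (-0.32) or 4 (-0.23), and without all of mouse 2 (-0.22) or 3 (-0.28). Its call between the times was lost without the block, by DESeq2, without the 1 h library of mouse 2 (0.26), 3 (0.30) or 4 (0.22) and without the 4 h library of mouse 4 (0.18). Without all of mouse 2, 3 or 4 it was lost at 0.31, 0.34 and 0.16. The call of *Igtp* was lost without the block, without the 1 h library of mouse 2 (0.26) or 4 (0.28), without the 4 h library of mouse 4 (0.22) and without all of mouse 4 (0.23), and 11.8% of its 50-base stretches are shared with *Irgm2*.

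The remaining 7 genes have varied or less defined roles. *Ifi27* encodes a small hydrophobic mitochondrial and membrane protein. It was counted at 766, 826, 626 and 1178 in untreated mice 1 to 4, at 815, 954, 628 and 1206 after 1 h, and at 714, 726, 598 and 707 after 4 h. All 4 mice were higher at 1 h and lower at 4 h. The log2 change was 0.08 ± 0.09 at 1 h, which did not pass, -0.28 ± 0.09 at 4 h (adjusted p = 0.0232, 0.00108 to 0.232 over the other fits) and -0.36 ± 0.09 between the times (adjusted p = 0.00464). The call at 4 h was lost without the block, without untreated mouse 4 (-0.20), without the 4 h library of mouse 4 (-0.13) and without all of mouse 4 (-0.12), the mouse with the largest step. The call between the times was lost without the block.

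*Rtp4*, which encodes a receptor transporter protein with antiviral activity, had counts of 1473, 2110, 2815 and 1517 in untreated mice 1 to 4, of 2363, 1705, 2759 and 2016 at 1 h and of 2600, 2128, 3075 and 2933 at 4 h. It was higher at 4 h in all 4 mice, by little in mouse 2 and by more in mice 1 and 4. The change was 0.47 ± 0.13 (adjusted p = 0.00577, 7.90e-15 to 0.0904 over the other fits), and the call was lost without the block and without all of mouse 4 (0.30). At 1 h the change was 0.18 ± 0.13, which did not pass, and it was 0.33 and passed without untreated mouse 2. With no filter on low counts *Rtp4* at 1 h also passed (0.18). Of its 50-base stretches, 11.6% are shared with *Gm45338*.

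*Parp14*, a mono-ADP-ribosyltransferase, fell by 0.30 on the log2 scale at 4 h and between the times (-0.30 ± 0.08 in both, adjusted p = 0.00755 and 0.00700), with 0.00 ± 0.08 at 1 h. Mouse 4 was the exception, with 6712 untreated and 7061 at 4 h. The call at 4 h was lost by DESeq2 and without all of mouse 2 (-0.22) or mouse 3 (-0.25), and that between the times with scaling by library size only and without all of mouse 1 (-0.22) or mouse 3 (-0.26). *Ifi35*, a leucine zipper protein, rose by 0.26 ± 0.09 at 4 h (adjusted p = 0.0324, 0.00169 to 0.188 over the other fits). It lost its call without the block, without untreated mouse 1 (0.17) or 4 (0.20), without the 1 h library of mouse 3 (0.25), without the 4 h library of mouse 1 (0.26) or 4 (0.17), and without all of mouse 1 (0.19) or 4 (0.17). Its exons overlap those of *Gm11626* on the other strand over 16.8% of their length.

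*Ifi44* and *Trim30a* did not pass at any time in any alternative, and *Xaf1* passed only at 4 h with no filter on low counts. *Ifi44* had the largest spread between untreated mice, with counts of 31.1, 88.4, 188 and 35.5 in mice 1 to 4, and log2 changes of 0.11 ± 0.28 and -0.08 ± 0.28. *Xaf1*, a partner of an inhibitor of apoptosis protein, had 0.06 ± 0.13 and 0.20 ± 0.13. *Trim30a*, a ubiquitin ligase that limits Toll-like receptor signalling, had -0.01 ± 0.10 and 0.13 ± 0.10.

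**Figure D5:**
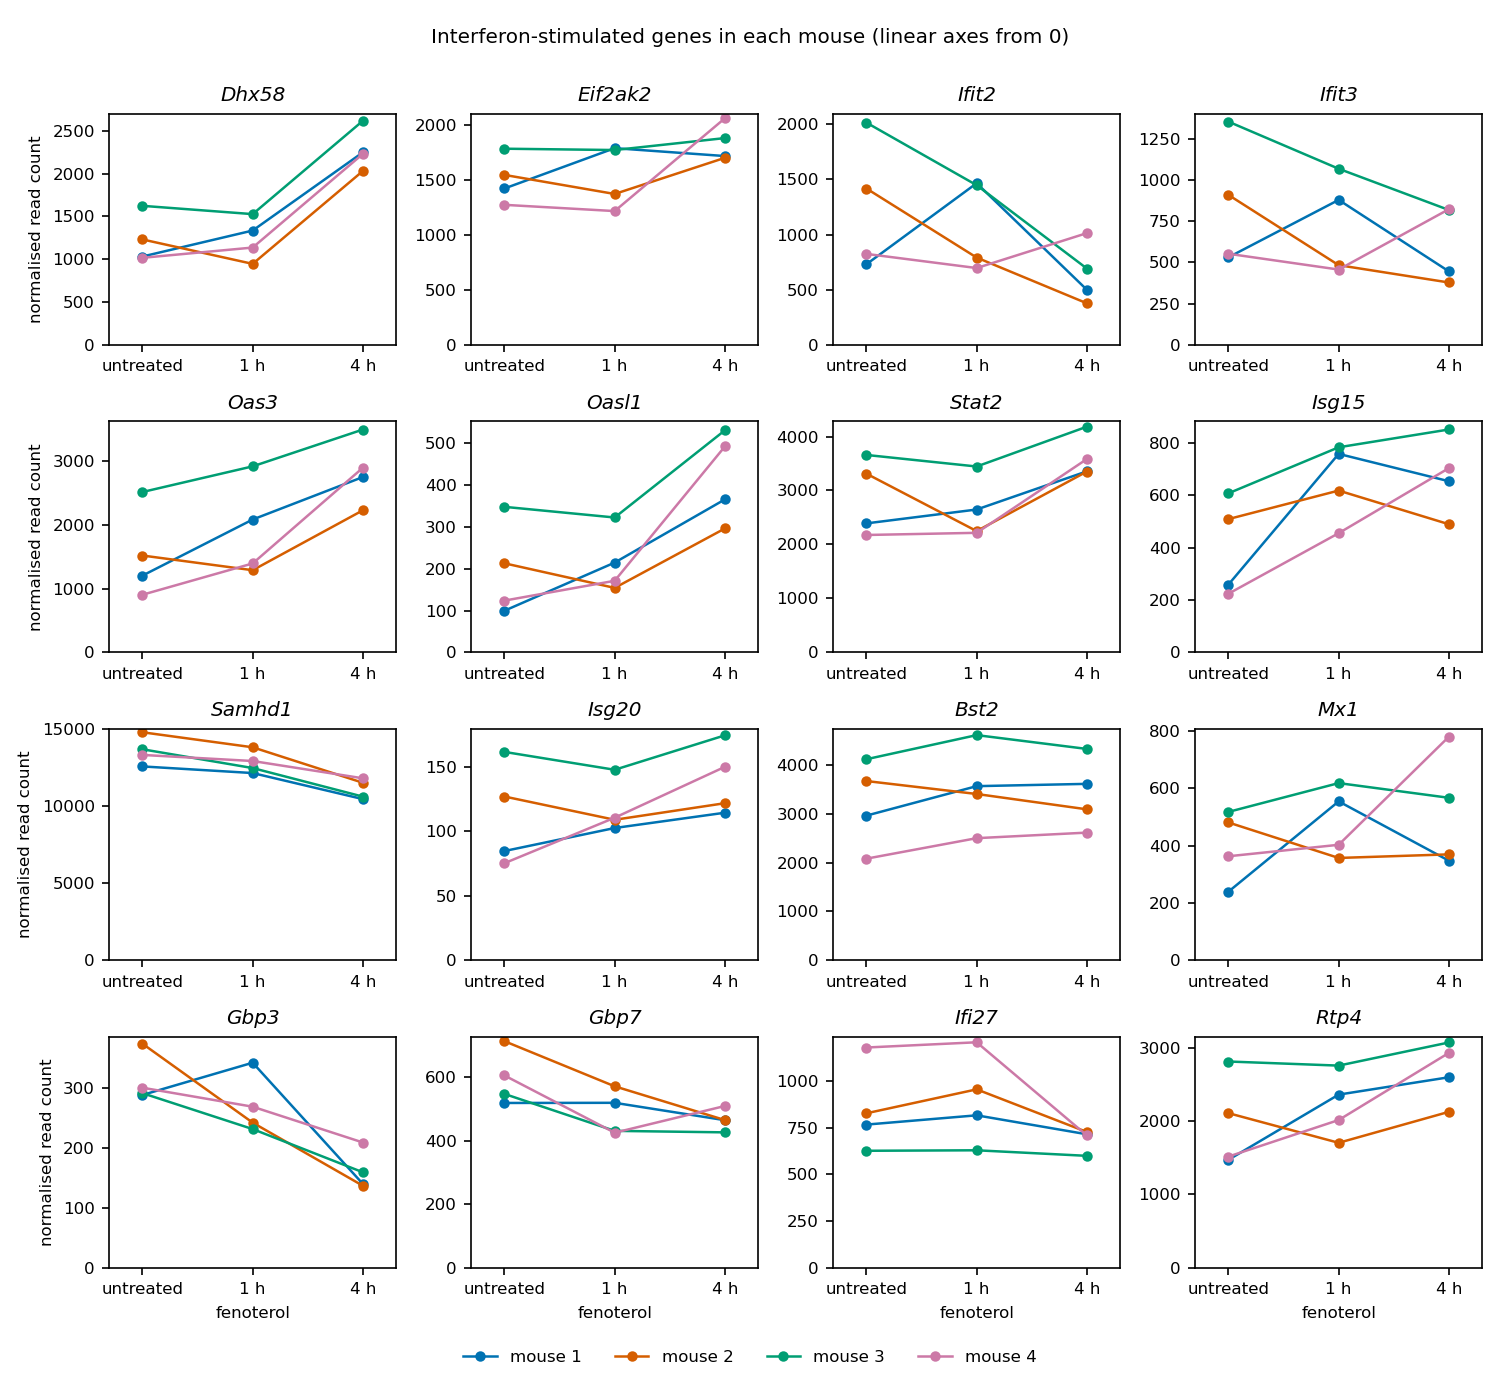
Normalised read counts (linear axes from 0) of 16 of the genes in untreated cells and after 1 h and 4 h of fenoterol, with 1 line per mouse. The lines of *Dhx58* and *Gbp3* keep together and their 4 h points lie apart from the rest, those of *Ifit2*, *Ifit3* and *Mx1* cross, and mouse 3 is the highest line in most panels.

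The interferons themselves were at or near 0. Of the 21 interferon genes listed, the highest total over the 12 libraries was 1 read, and 0 of 21 passed the filter and could be tested. *Ifnb1*, which encodes interferon beta, had no read in any library, which allows up to 3 counts per library, or 0.124 to 0.206 CPM (counts scaled to library size). Interferon protein and the conditioned medium were not measured.

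The counts of the lists that follow stand against 13.3% of all genes higher and 13.7% lower at 1 h, and 23.6% higher and 23.8% lower at 4 h. Of the 7 genes for interferon receptors and JAK kinases, 4 were higher and 0 lower at 1 h, and 4 were higher and 2 lower at 4 h. *Ifnar1*, a chain of the type I receptor, rose from 7170 ± 1141 to 10692 ± 1602 normalised counts at 1 h (SD, n = 4), by 0.58 ± 0.04 on the log2 scale (adjusted p = 1.14e-08), and stood at 7869 ± 1232 at 4 h (0.13 ± 0.04, adjusted p = 0.0162, not passed without the block). *Ifnar2*, the other chain, stayed between means of 3099 and 3130, with log2 changes of -0.01 ± 0.05 and 0.01 ± 0.05. *Ifngr2*, a chain of the interferon gamma receptor, rose by 0.73 ± 0.05 and 0.42 ± 0.05 at 1 h and 4 h (adjusted p = 2.14e-09 and 1.40e-06). *Jak2* rose by 0.30 ± 0.06 and 0.68 ± 0.06, and *Jak1* fell by 0.29 at 4 h.

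Of the 17 STAT and IRF factors and brakes of the pathway, 3 were higher and 5 lower at 1 h, and 5 higher and 6 lower at 4 h, where 23.6% of all genes were higher and 23.8% lower (13.3% and 13.7% at 1 h). *Irf7*, the factor that amplifies interferon production and is itself interferon-stimulated, was at 3163 ± 1953, 3917 ± 2022 and 5363 ± 1574, with 0.35 ± 0.18 at 1 h, which did not pass, and 0.92 ± 0.19 at 4 h (adjusted p = 0.000596, not passed without the block). *Irf9*, a subunit of ISGF3 with *Stat2*, fell by 0.25 at 1 h (-0.25 ± 0.06, adjusted p = 0.00436) and was at -0.01 ± 0.06 at 4 h. At 4 h *Stat2* thus rose and *Irf9* did not pass, and the difference between them was not tested. *Irf8*, a macrophage lineage factor, fell by 0.74 and 1.13 at 1 h and 4 h, *Stat3* rose by 0.31 and 0.90, and the phosphatases *Ptpn6* and *Ptpn1* had -0.66 ± 0.05 and -0.80 ± 0.06 at 4 h, both past the threshold.

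Of the 18 sensors and adaptors upstream of interferon that were measured, 1 was higher and 7 lower at 1 h, and 3 were higher and 10 lower at 4 h, beside 13.3% and 13.7% of all genes at 1 h and 23.6% and 23.8% at 4 h. *Tlr7*, a receptor for single-stranded RNA, fell from 8708 ± 1071 to 5457 ± 647 and 1997 ± 121 normalised counts, by -0.67 ± 0.07 and -2.12 ± 0.07 on the log2 scale (adjusted p = 5.06e-07 and 1.69e-13). *Tlr9*, a receptor for DNA, had -0.50 ± 0.07 and -0.95 ± 0.07, of which the change at 1 h did not pass without the block. *Ticam1*, the adaptor TRIF, had -0.83 ± 0.06 and -0.65 ± 0.06. *Tlr4*, the endotoxin receptor, had -0.78 ± 0.08 at 1 h and 0.11 ± 0.07 at 4 h, the second not past the threshold.

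Of 73 further interferon-stimulated genes, 65 were tested. At 1 h 5 were higher and 13 lower, and at 4 h 14 were higher and 22 lower, with medians of 0.00 and -0.09. Over all genes the shares were 13.3% higher and 13.7% lower at 1 h and 23.6% and 23.8% at 4 h. *Trim25*, a ubiquitin ligase that activates RIG-I, rose from 5687 ± 430 to 14664 ± 1033 and 10208 ± 833 normalised counts (1.37 ± 0.05 and 0.84 ± 0.05). *Helz2*, a helicase, rose by 0.71 ± 0.12 and 1.64 ± 0.12, and its change at 4 h was larger than that of any of the 35 genes. *Slfn2* had -1.10 ± 0.07 and -0.38 ± 0.07, and *Trim21*, an antibody receptor in the cytosol, had -0.88 ± 0.06 and -0.67 ± 0.06. These 4 genes were named for the smallest p, so they show the ends of that list and not its middle.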

How the data were processed

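RNA-seq was made from 12 libraries of BMDMs. Per the labels and the methods, the authors prepared TruSeq Stranded mRNA libraries, mapped single-end reads to GRCm38 with TopHat2 2.0.11 and counted them per gene with HTSeq 0.8.0. The deposited values are raw counts, not normalized. The strand option and annotation release are not given in the sources used here. No sample column was left unused.

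Fold changes were computed with edgeR 4.0.16 (R 4.3.3) after filterByExpr on the 3 groups and TMM scaling, by the quasi-likelihood test, in 1 fit over 12 libraries with the mouse as a block, since per the design text cells of each mouse entered all 3 conditions. P-values were adjusted over 12386 genes per contrast, with a threshold of 0.05. The paper used vsn and limma and names no block. Changes within a mouse are differences of log2(normalised count + 1). RPKM uses the union exon length in GENCODE M21, which matched 53274 of 53379 genes. Shared 50-base stretches were counted against all GENCODE M21 transcripts. Between libraries of the same mouse number, deviations from their group means had Pearson's r of 0.291 to 0.561 (12 pairs), and those of other numbers -0.300 to 0.0849 (36 pairs), over 12386 genes. Over the 35 genes alone, r was -0.484 to 0.916 (median 0.338) for the same number and -0.793 to 0.825 (median -0.00959) for other numbers. These ranges overlap, so the check shows the pairing for the whole table and not for the 35 genes. Replicates of a group differed beyond counting error (chi-square per degree of freedom 9.63 to 20.0 over 18 pairs). Limits for a count of 0 cover counting error only.

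Alternatives were no block, DESeq2 1.42.0, limma-voom and limma-trend (limma 3.58.1), RLE scaling, library size only, no filter, a mean count of at least 50, only the 2 groups compared, an adjusted p under 0.01, and each library and each mouse left out. On simulated counts of 12264 genes with 200 changed, for the 1 h comparison, edgeR with the block recovered 173 with 13 false calls and without it 151 with 0, and DESeq2 recovered 165 with 11. In an unchanged comparison these tests made 0 calls.

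The members and gene lists were chosen with earlier results of these data known. Counts in every library are given for the 2 genes of each role with the smallest p in any contrast and a mean count of at least 20, and of each other list at most 4 genes with the smallest p are named, besides *Ifnb1*, *Ifnar1*, *Ifnar2*, *Irf7* and *Irf9*. A further gene named by this rule is not reported here. *Rsad2*, *Parp14* and *Ifi44* counts were added after their values were seen.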

Additional observations from a re-analysis of the deposited data

Results flagged for a closer look

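In 4 of the 105 sets of 4 libraries (35 genes in 3 groups), 1 library stood far from the other 3, where chance gives about 5.25. *Gbp2* at 4 h was at 545 normalised counts in mouse 4 and at 376 to 395 in the others (gap 0.890 of the range). Untreated *Gbp3* was at 374 in mouse 2 against 288 to 300.2 (0.859). *Ifi44* at 1 h was at 149 in mouse 3 against 60.5 to 66.4 (0.933), and *Ifi27* at 4 h was at 598 in mouse 3 against 707 to 726 (0.854).

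The effects at 1 h and 4 h differed in 13 genes by the direct comparison of the 2 time points, which share their untreated libraries. Of the 35 genes, 7 were higher and 6 lower at 4 h than at 1 h, against 23.0% and 23.6% of all genes, so that the list did not hold more such genes than the table. On the log2 scale, 4 h was higher for *Dhx58* (0.90), *Eif2ak2* (0.28), *Oas3* (0.63), *Oasl1* (1.00), *Stat2* (0.47), *Igtp* (0.33) and *Irgm1* (0.32). It was lower for *Ifit2* (-0.75), *Samhd1* (-0.21), *Gbp2* (-0.38), *Gbp3* (-0.74), *Ifi27* (-0.36) and *Parp14* (-0.30).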

How the results depend on the processing

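Replicates of a group differed by more than counting error. Without the replicate block, 16 of the 31 calls were lost and 0 were gained: 0 genes were higher and 0 lower at 1 h, 4 higher at 4 h and 3 higher between the times. RLE scaling and limma-trend changed no call, limma-voom gained 1, and DESeq2 lost 9 (1 lower at 1 h). With no filter on low counts 20 calls were gained (7 higher at 1 h, 15 higher at 4 h), and with only the 2 groups compared 6 (3 higher at 1 h). The cause was not tested. With scaling by library size only, 3 were lower between the times and 10 higher, against 6 and 7, and over all genes at 1 h 1207 were higher and 2641 lower, against 1646 and 1702. At an adjusted p under 0.01, 12 of the 31 calls were lost, with 0 lower at 1 h and 4 higher between the times. Leaving out 1 library gave 0 to 6 higher and 0 to 3 lower at 1 h, 6 to 15 higher at 4 h, and 4 to 11 higher and 4 to 10 lower between the times. Leaving out 1 mouse gave 0 to 4 higher and 0 to 2 lower at 1 h, 5 to 15 higher at 4 h, and 4 to 9 higher and 3 to 10 lower between the times. The 15 higher at 4 h came without untreated mouse 2 or without all of mouse 2, and the 5 without all of mouse 4. The 6 higher at 1 h came without untreated mouse 2. The median change of the 35 genes lay between -0.064 and 0.205 (1 h) or -0.079 and 0.215 (4 h) over left-out libraries, so that its sign rests on single libraries. No call changed sign in any alternative. Of the 74 values that did not pass, 48 had the other sign in some alternative without passing there, all with a value of at most 0.35 in size.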
